A study of Mus musculus with 6 samples.

Results

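The aminoacyl-tRNA synthetase genes of the mouse were followed in RNA from the thalamus that the labels call ribosome-bound. Genes were chosen by symbol: names of the form Xars or Xars2, Eprs, the subunits Farsa and Farsb of phenylalanyl-tRNA synthetase, and the scaffold proteins Aimp1 and Aimp2. This gave 39 of 32531 genes in the deposited counts: 20 cytosolic enzymes or subunits, 17 mitochondrial enzymes (symbols ending in 2) and 2 scaffolds. All 39 passed the filter on low counts and were among the 16898 genes tested.

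The mice were adult, untreated animals of the Cbln1-EGFP/Rpl10a TRAP line NIDA030. In this line a ribosomal protein fused to green fluorescent protein is made under regulatory sequences of Cbln1, a synaptic organiser expressed in subsets of thalamic neurons, and tagged ribosomes are pulled down with antibodies against the tag. The groups were 3 immunopurified libraries (IP) and 3 Input libraries, both from dissected thalamus of this line and both labelled as ribosome-bound RNA. The names of the deposited tables mention the parafascicular nucleus, a single nucleus of the thalamus, so the extent of the dissection is uncertain. The labels do not say that the replicates came from separate animals, so a p-value here speaks only for the spread among these 6 libraries, which may be technical.

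An aminoacyl-tRNA synthetase joins an amino acid to its matching tRNAs, which then deliver it to the ribosome. For most amino acids a cytosolic enzyme and a mitochondrial enzyme are made from separate nuclear genes, while Gars and Kars each supply both compartments. Several cytosolic enzymes sit together in the multisynthetase complex, held by the scaffolds Aimp1, Aimp2 and Eef1e1. In humans, inherited faults in many of these genes cause neuropathy, leukoencephalopathy or epilepsy.

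Assigned counts ran from 23929070 in Input replicate 1 to 57385828 in IP replicate 1, and the 45S ribosomal RNA precursor Rn45s took 9.38% to 14.5% of them in IP and 5.21% to 5.40% in Input. Cbln1, whose regulatory sequences drive the tag, had 1361, 1428 and 1496 CPM (counts relative to library size) in IP, against 68.9, 83.2 and 87.2 CPM in Input. All 10 general neuronal markers and 5 of 8 thalamic glutamatergic markers were higher in IP, and 1 thalamic marker (Rora) was lower. All 10 astrocyte, all 9 oligodendrocyte and all 4 GABAergic markers were lower in IP, with 6 of 8 microglial and 6 of 8 endothelial markers. Summed neuronal markers lay between 24780 and 29600 CPM in IP and between 12920 and 13950 CPM in Input. The summed oligodendrocyte markers lay between 309.8 and 388.9 CPM in IP, against 3569 to 4127 CPM in Input, and the endothelial genes Cldn5 and Cdh5 were at 0 in all IP libraries. This shift of cell types moved with every difference between IP and Input described here, and its part in them was not tested. Fewer cells of a type, less RNA per cell and a different share of RNA on ribosomes cannot be told apart in such bulk libraries.

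Of the 39 genes, 14 were higher in IP and none was lower, by edgeR's quasi-likelihood test with Benjamini-Hochberg adjustment over all genes tested (threshold 0.05). The share higher was 35.9%, beside 23.3% of all genes tested, and 24.3% of all genes tested were lower. No synthetase gene was lower at an unadjusted p under 0.05 either, and DESeq2 and limma-voom also gave 14 higher and 0 lower. The log2 fold change (IP over Input) was above 0 in 34 of the 39 and below 0 in 5. All IP values lay above all Input values for 15 genes, which is 38.5% beside 27.9% of all genes tested, and below them for 1 gene (Eprs), beside 33.7% of all genes tested. All 14 called genes were among those 15, so by that alone each was higher in IP in the 3 same-numbered pairs of libraries.

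The 2 compartments had similar median fold changes and different numbers of calls. The median log2 fold change was 0.33 for the 20 cytosolic genes and 0.34 for the 17 mitochondrial genes, beside -0.07 for all genes tested. Of the cytosolic genes 10 were called higher (50%), and of the mitochondrial genes 3 (17.6%), beside 23.3% of all genes tested. The median SE of a cytosolic gene was 0.12 and that of a mitochondrial gene 0.24, and the difference between the compartments' calls was not tested. Since a scaling shifts all genes by about the same amount, the medians are also given as their distance from the median of all genes. That distance was 0.40 for the cytosolic and 0.41 for the mitochondrial genes with TMM scaling, 0.40 and 0.41 with upper-quartile scaling, and 0.40 and 0.42 with library totals. It was 0.70 and 0.71 with DESeq2, run without the edgeR filter, and the same with edgeR without that filter. In both fits low-count genes entered the median of all genes (-0.41 and -0.345), while the cytosolic medians were 0.285 and 0.35. With a minimum count of 50 the distance was 0.28 and 0.30. The median of all genes was -0.07, -0.25 and -0.31 with TMM, upper-quartile scaling and library totals. Of all called genes 48.9%, 36.7% and 31.9% were called higher. The calls did depend on the scaling: 8 genes were called higher with upper-quartile scaling and 3 (Hars, Kars and Lars2) with library totals.

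**Figure D1:**
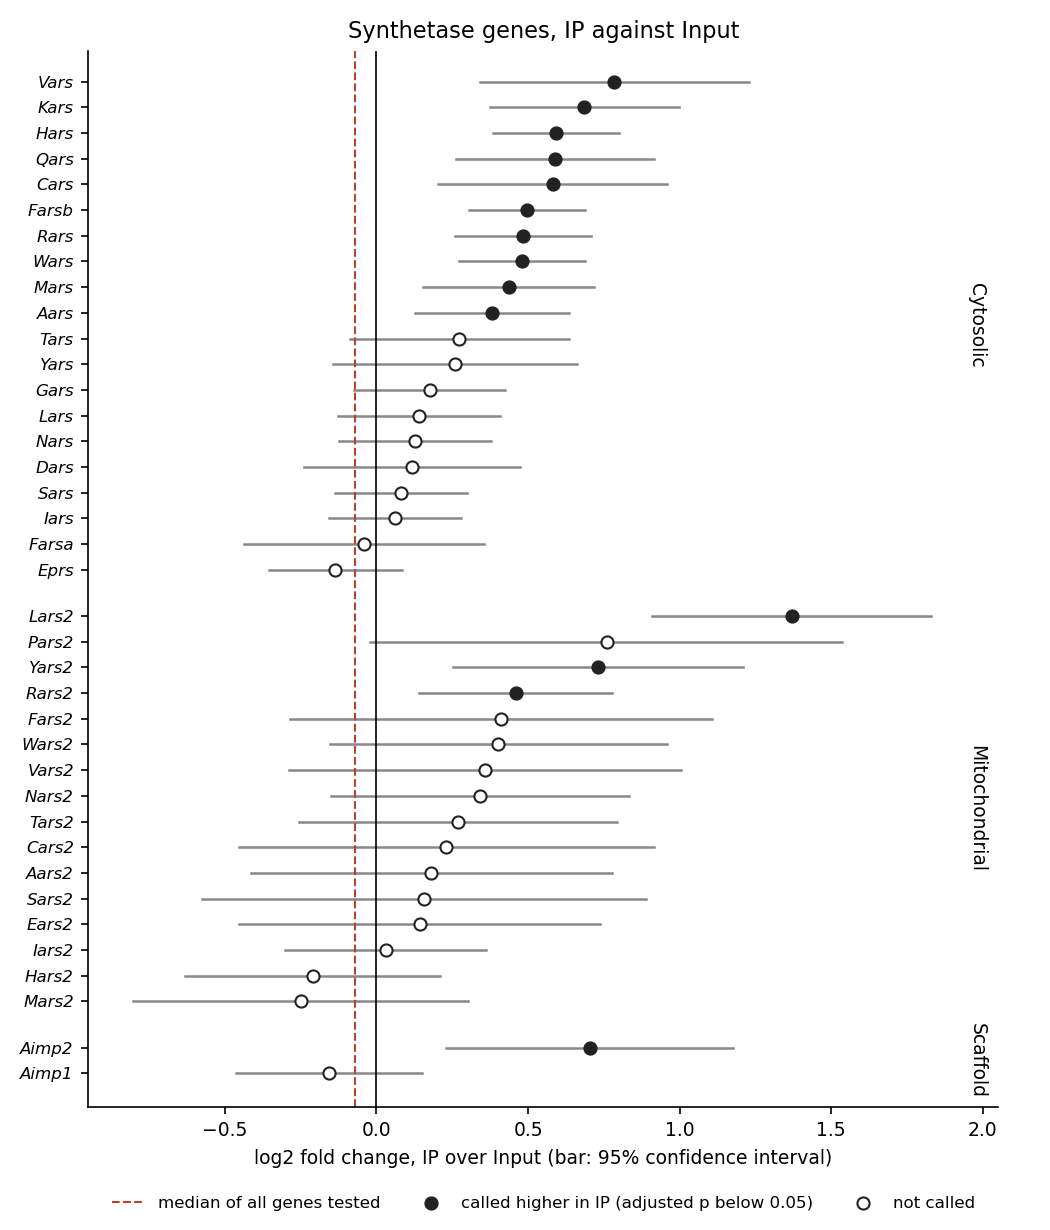
Log2 fold change of 38 of the 39 genes, IP over Input, with 95% confidence intervals, grouped as cytosolic, mitochondrial and scaffold and sorted within each group; filled points are the 14 genes called higher, and the dashed line is the median of all genes tested (-0.07). Most points in both compartments lie right of 0, and the intervals of the mitochondrial genes are wider.

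Calls followed abundance in the family as they did in all genes. Among genes with a mean of 5 to 20 CPM, 3 of 17 synthetase genes and 17.2% of all genes were higher in IP. Between 20 and 50 CPM these were 4 of 9 and 35.1%, between 50 and 200 CPM 6 of 11 and 48.8%, and over 200 CPM 1 of 2 and 61.2%. No synthetase gene had a mean under 5 CPM, where 2.67% of all genes were higher. The family's share of higher calls was thus near that of genes of like abundance in each band. In the 4 bands that held family genes, 24.7%, 18.1%, 16.5% and 12.3% of all genes were lower in IP, and 0 of the 39.

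**Figure D2:**
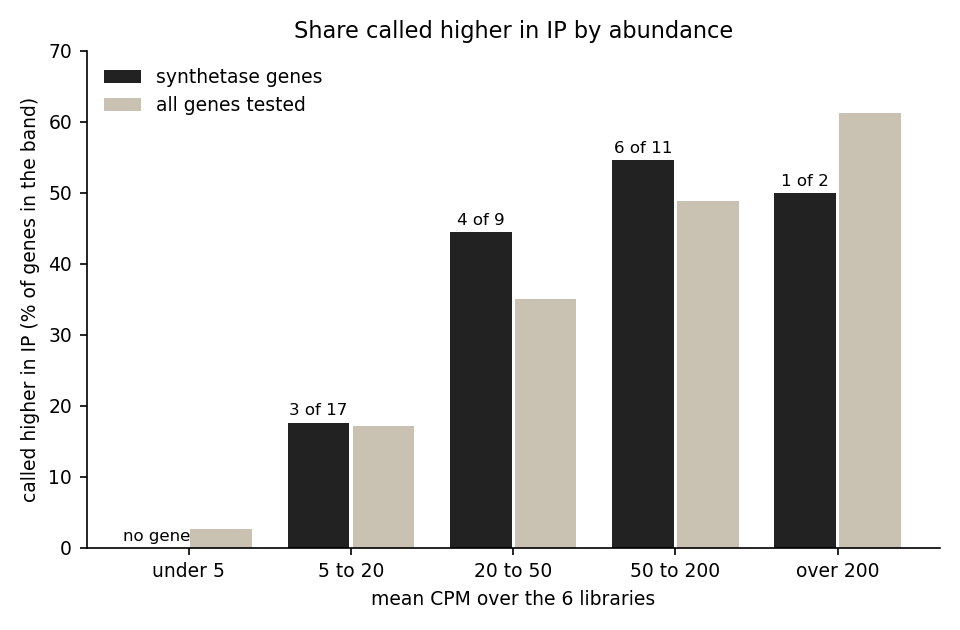
Percentage of genes called higher in IP in 5 bands of mean CPM over the 6 libraries, with synthetase genes as dark bars (counts printed above) and all genes tested as light bars. Both shares climb with abundance up to 200 CPM, and 3 of 17 synthetase genes were called between 5 and 20 CPM.

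Among cytosolic enzymes, the highest fold changes belonged to Vars, Kars and Hars. Vars (chromosome 17, 35000987 to 35016322, plus strand, GRCm38), the valine enzyme, had 11.1, 13.4 and 11.7 CPM in the IP libraries, against 6.27, 7.12 and 7.56 CPM in Input. Every IP value lay above every Input value, and the log2 fold change was 0.79 (SE 0.20, adjusted p = 0.00935). Without replicate 2 of both groups the Vars call was lost (adjusted p = 0.0681). Kars (chromosome 8, 111993443 to 112011323, minus strand) charges lysine tRNAs in both the cytosol and mitochondria and belongs to the multisynthetase complex. It had 71.0, 87.8 and 103.2 CPM in IP, against 53.7, 51.7 and 57.6 CPM in Input, with no overlap (adjusted p = 0.00322; log2 fold change 0.69 ± 0.14 SE). Hars, the histidine enzyme, had 106.1, 108.0 and 121.3 CPM in IP and 73.2, 73.0 and 76.3 CPM in Input. The Hars groups lay well apart, and its log2 fold change of 0.59 (SE 0.09) had the lowest adjusted p of the cytosolic genes (0.000787). The calls of Hars and Kars held in all 17 alternatives run, with adjusted p up to 0.0222 for Hars and 0.0428 for Kars.

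The lowest fold changes among called cytosolic genes were those of Aars, Mars and Wars. Aars, the alanine enzyme, whose human gene is mutated in a form of Charcot-Marie-Tooth neuropathy, had 100.8, 123.9 and 108.0 CPM in IP, against 90.7, 75.8 and 89.1 CPM in Input. The lowest IP value stood close above the highest Input value (adjusted p = 0.0205; log2 fold change 0.38 ± 0.11 SE), and the call was lost without Input replicate 2 (adjusted p = 0.0905) or 3 (0.0507). By the annotation 15.1% of the exonic bases of Aars are shared with other genes, mainly Exosc6 on the same strand. Mars, the methionine enzyme, had 39.1, 38.1 and 43.4 CPM in IP and 27.3, 32.7 and 29.0 CPM in Input. These groups did not overlap (adjusted p = 0.0174; log2 fold change 0.44 ± 0.13 SE), but the call was lost without Input replicate 1 (adjusted p = 0.0788) or 3 (0.0763). Wars, the tryptophan enzyme, had 106.4, 96.9 and 95.6 CPM in IP, against 74.3, 72.2 and 67.8 CPM in Input (adjusted p = 0.00258; log2 fold change 0.48 ± 0.09 SE), again with no overlap.

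The other 4 called cytosolic genes were Qars (log2 fold change 0.59), Cars (0.58), Farsb (0.50) and Rars (0.48), which charge glutamine, cysteine, phenylalanine and arginine tRNAs. The Cars call was lost when any of the 3 Input libraries was left out (adjusted p = 0.0686, 0.0507 and 0.0591 without replicates 1, 2 and 3). The 10 cytosolic genes that were not called had log2 fold changes from -0.14 to 0.27. They were Tars (0.27), Yars (0.26), Gars (0.18), Lars (0.14), Nars (0.13), Dars (0.12), Sars (0.08), Iars (0.06), Farsa (-0.04) and Eprs (-0.14). Gars, the glycine enzyme of both compartments and in humans a neuropathy gene, had 90.1, 114.7 and 106.1 CPM in IP and 86.2, 92.4 and 96.7 CPM in Input. The Gars groups overlapped (adjusted p = 0.219; log2 fold change 0.18 ± 0.11 SE), though without IP replicate 1 it was called higher (0.28, adjusted p = 0.0247). Nars and Yars were called higher without that library too (adjusted p = 0.0123 and 0.0194). Eprs, which joins the glutamate and proline enzymes in a single protein, had 87.4, 87.8 and 75.5 CPM in IP, against 88.9, 91.1 and 95.5 CPM in Input. All its IP values lay below its Input values by a small margin (SE 0.10, adjusted p = 0.277), and it was called lower with upper-quartile scaling (adjusted p = 0.0256) and with library totals (0.0155).

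**Figure D3:**
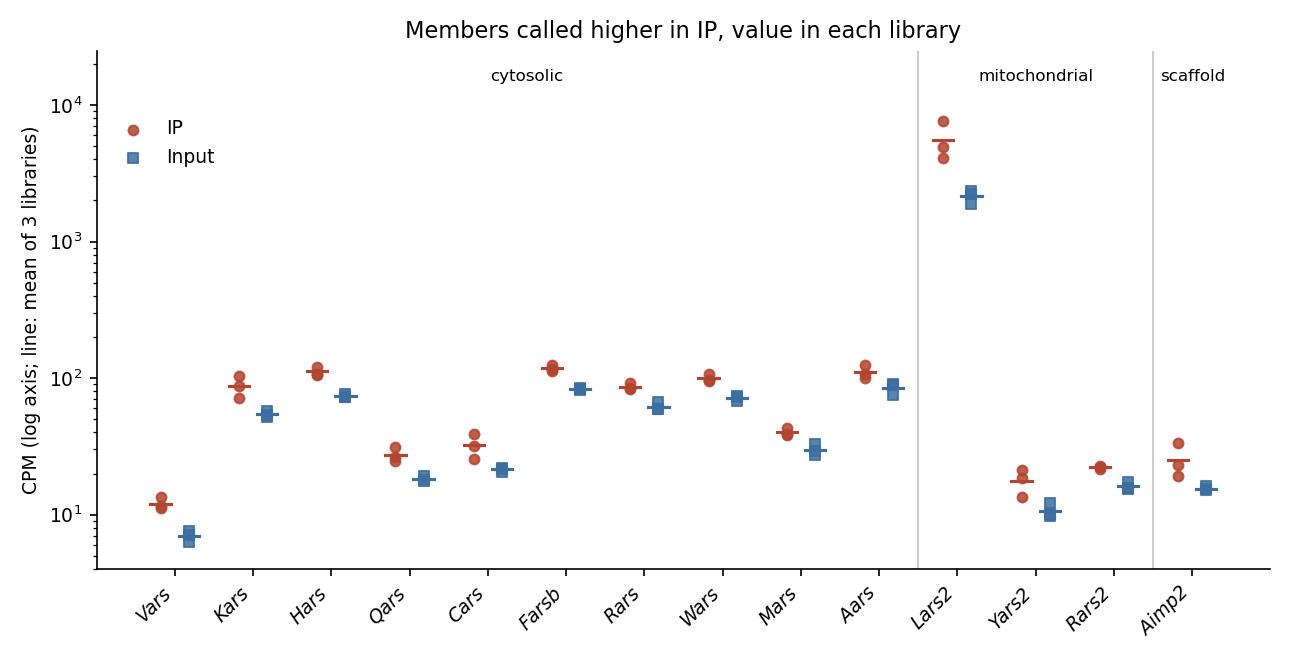
CPM of the 14 called genes in each library on a log axis, with IP (circles) left of Input (squares) and a line at each mean of 3 libraries. IP lies above Input without overlap for every gene drawn, and Lars2 stands far above the rest at 4073 to 7683 CPM in IP and 1880 to 2349 CPM in Input.

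Calls were also counted by place in the multisynthetase complex and by structural class, with no test of the difference. Of the 8 cytosolic enzymes of the complex, 4 were higher in IP (Kars, Qars, Rars and Mars), and of the 12 outside it, 6, beside 35.1% of all genes between 20 and 50 CPM and 48.8% between 50 and 200 CPM. Of the 9 class I enzymes, which share a Rossmann-fold catalytic domain, 6 were higher, with a median log2 fold change of 0.48. Of the 10 class II genes 4 were higher, with a median of 0.22, counts too small to set the classes apart. Both stand beside 23.3% of all genes tested and the shares by abundance just given. Eprs carries a domain of each class and was left out of these 2 counts.

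The scaffolds of the complex differed. Aimp2 (chromosome 5, 143902704 to 143909847, minus strand) had 33.7, 23.1 and 19.0 CPM in IP, against 16.1, 15.1 and 15.4 CPM in Input. The IP values spread widely and all lay above Input (adjusted p = 0.0213; log2 fold change 0.70 ± 0.21 SE), and the call was lost when any 1 of the 3 Input libraries was left out (adjusted p from 0.0600 to 0.0713). Aimp2 shares 29.4% of its exonic bases with Eif2ak1 on the opposite strand. Eif2ak1 had 122.6, 112.6 and 90.5 CPM in IP and 62.4, 62.2 and 66.2 CPM in Input, and since the strand setting of the counting is not known, reads of the shared bases cannot be assigned to either gene. Aimp1 had 34.5, 36.3 and 27.5 CPM in IP and 35.1, 38.3 and 36.3 CPM in Input, which overlap (adjusted p = 0.372; log2 fold change -0.16 ± 0.14 SE). Library totals alone called it lower (adjusted p = 0.0456). The third scaffold, Eef1e1, also rose, with 50.7, 41.0 and 48.7 CPM in IP, against 24.99, 20.3 and 18.1 CPM in Input (adjusted p = 0.000347; log2 fold change 1.15 ± 0.16 SE).

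Promoter sequences bear on the family because ATF4, a transcription factor of the integrated stress response, is known to act on many cytosolic synthetase genes. RefSeq promoters (GRCm38.p6, 250 bases before to 50 after the start site) were at hand for 29 of the 39 genes, and not, among others, for Cars, Hars, Hars2, Lars, Nars, Pars2, Rars, Vars and Wars. They were searched on both strands for TGATGNAA, a core of the composite C/EBP-ATF response element bound by ATF4. The motif, chosen after the values were seen, was present in 5 of 13 cytosolic promoters (Aars, Gars, Iars, Tars and Yars), in 0 of 14 mitochondrial and in 0 of 2 scaffold promoters, beside 4.51% of 27025 genes. The windows that hold it are printed 5′ to 3′ on the gene's strand, with the match in capitals, to show how near the start site it falls (the position of its first base counts the start site as 0).
Aars (chr8:111033704-111033763, plus strand, first matched base at -112): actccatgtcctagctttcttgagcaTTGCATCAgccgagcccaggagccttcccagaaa
Aars (chr8:111033825-111033884, plus strand, at 9): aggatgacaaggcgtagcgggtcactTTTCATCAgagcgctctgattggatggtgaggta
Gars (chr6:55037945-55038004, plus strand, at -30): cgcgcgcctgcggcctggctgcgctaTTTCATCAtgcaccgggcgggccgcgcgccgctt
Iars (chr13:49682111-49682170, plus strand, at 7): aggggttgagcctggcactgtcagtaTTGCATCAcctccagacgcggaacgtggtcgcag
Tars (chr15:11399640-11399699, minus strand, at -15): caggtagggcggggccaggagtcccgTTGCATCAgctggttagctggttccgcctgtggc
Yars (chr4:129189880-129189939, plus strand, at 3): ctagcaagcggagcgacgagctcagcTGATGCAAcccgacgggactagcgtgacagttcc

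Of these 5 genes only Aars was called higher in IP (log2 fold change 0.38), beside 5 of all 13 cytosolic genes with a promoter. The called genes Cars, Hars, Rars, Vars and Wars had no promoter to search. Iars, Gars, Yars and Tars had log2 fold changes of 0.06, 0.18, 0.26 and 0.27 and were not called. No difference between genes with and without the motif was tested. A core of the binding site of NRF1, a factor known for nuclear genes of mitochondria, was searched as GCGCANGCG. It stood in 3 of 13 cytosolic (Farsb, Kars and Tars) and 4 of 14 mitochondrial promoters (Iars2, Mars2, Vars2 and Wars2), beside 7.03% of genes. The windows of the 2 called genes among them are printed in the same way.
Kars (chr8:112011368-112011428, minus strand, at -48): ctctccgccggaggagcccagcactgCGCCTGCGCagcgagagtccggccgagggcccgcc
Farsb (chr1:78488848-78488895, minus strand, at 28): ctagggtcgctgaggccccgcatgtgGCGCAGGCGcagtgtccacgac
Both motifs stood in the Tars promoter, at separate places. A match describes these letters and is not a measured binding site.

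Among mitochondrial enzymes, Lars2 (chromosome 9, 123366927 to 123462666, plus strand), which charges leucine tRNAs in the matrix, stood apart. It had 7683, 4073 and 4899 CPM in IP, against 2349, 2219 and 1880 CPM in Input, 2.58-fold higher in IP (adjusted p = 0.000613; log2 fold change 1.37 ± 0.20 SE). Lars2 made up 96.5% of the summed CPM of the 17 mitochondrial enzymes in IP and 92.8% in Input. Per kilobase of exon its level was 62.3 times that of the next mitochondrial enzyme in IP and 33.2 times in Input. The Lars2 call held in all 16 alternatives run.

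The Lars2 counts kept a near-constant ratio to those of Rn45s. For every 100 Rn45s counts there were 4.61, 4.14 and 4.72 Lars2 counts in IP, against 4.64, 4.48 and 3.97 in Input. The ratio thus lay between 3.97 and 4.72 in all 6 libraries, and the groups overlapped. Rn45s itself had a log2 fold change of 1.32 with an SE of 0.18 (adjusted p = 0.000312), beside 1.37 for Lars2. Whether reads of ribosomal RNA were counted to Lars2 was not tested. Results on mitochondrial enzymes are therefore also given without it: 2 of 16 were higher (12.5%, beside 23.3% of all genes tested), with a median log2 fold change of 0.31.

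**Figure D4:**
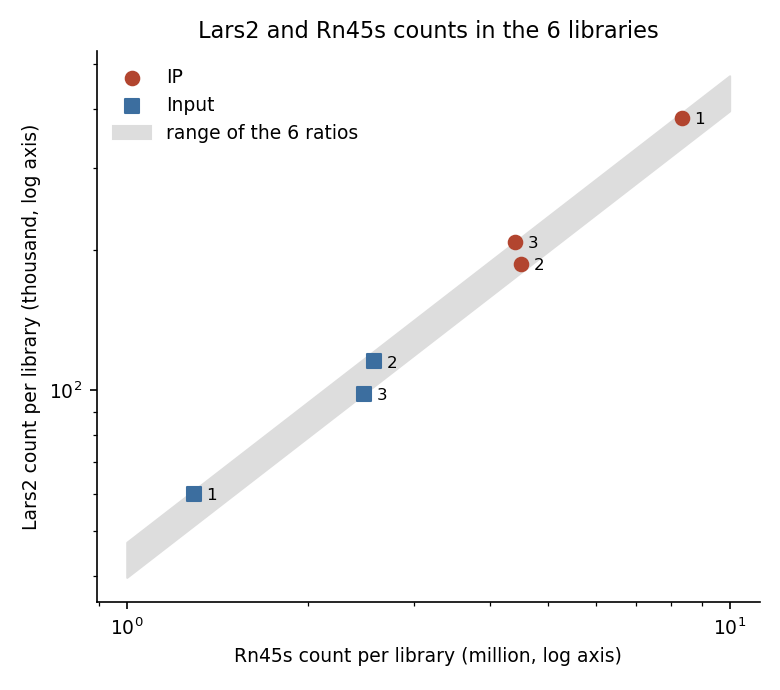
Lars2 count against Rn45s count in each library, both on log axes, with IP as circles and Input as squares, numbered by replicate; the grey band spans ratios of 3.97 to 4.72 Lars2 counts per 100 Rn45s counts. The band is drawn from these 6 libraries and so holds them all, and IP replicate 1 is highest on both axes.

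The other mitochondrial enzymes called higher were Yars2 and Rars2. Yars2, the tyrosine enzyme, in humans a gene of myopathy with lactic acidosis and sideroblastic anaemia, had 21.3, 13.4 and 18.6 CPM in IP, against 10.1, 12.2 and 9.78 CPM in Input. The lowest IP value was just above the highest Input value (adjusted p = 0.0185; log2 fold change 0.73 ± 0.21 SE). Rars2, the arginine enzyme, whose human gene is mutated in pontocerebellar hypoplasia, had 22.8, 21.6 and 22.4 CPM in IP and 15.8, 17.4 and 15.4 CPM in Input. Its groups lay apart with little spread in IP (adjusted p = 0.0242; log2 fold change 0.46 ± 0.14 SE). Both calls were lost without Input replicate 1 (adjusted p = 0.0713 for Yars2 and 0.0854 for Rars2) or 3 (0.0790 and 0.109), and that of Rars2 also without Input replicate 2 (0.0530).

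Ears2 is a leukoencephalopathy gene in humans, and disease from human EARS2 is known for changes in the thalamus. Ears2, the glutamate enzyme, had 7.18, 12.1 and 10.8 CPM in IP, against 6.74, 10.3 and 10.1 CPM in Input, an overlap of nearly the whole range (adjusted p = 0.686; log2 fold change 0.14 ± 0.26 SE). Its 95% interval, from -0.45 to 0.74, holds both a modest fall and a rise like that of Yars2. Pars2, the proline enzyme, had a log2 fold change of 0.76, more than Yars2, and was not called (SE 0.34, adjusted p = 0.0994) except without IP replicate 1 (1.03, adjusted p = 0.0108) or without replicate 1 of both groups (0.88, adjusted p = 0.0405).

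No other mitochondrial enzyme was called. The log2 fold changes were 0.41 for Fars2, 0.40 for Wars2, 0.36 for Vars2, 0.34 for Nars2, 0.27 for Tars2, 0.23 for Cars2, 0.18 for Aars2, 0.16 for Sars2, 0.03 for Iars2, -0.21 for Hars2 and -0.25 for Mars2. Leaving out IP replicate 1 brought Nars2 over the threshold (0.52, adjusted p = 0.0395), and leaving out replicate 2 of both groups did so for Wars2 (0.80, adjusted p = 0.0362). Iars2 shares 24.2% of its exonic bases with other genes, mainly Rab3gap2 on the opposite strand.

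In level, cytosolic enzymes were above their mitochondrial partners in both groups. On a scale of CPM per kilobase of exon, the cytosolic genes had a median of 11.9 in IP and 10.3 in Input, from Vars (2.15 in IP and 1.25 in Input) to Nars, the asparagine enzyme (79.7 in IP and 73.0 in Input). The 16 mitochondrial enzymes other than Lars2 had a median of 2.04 in IP and 1.60 in Input, from Mars2 (0.651 in IP and 0.772 in Input) to Rars2 (8.04 in IP and 5.85 in Input). For 13 amino acids besides leucine, 1 gene of each compartment was paired by symbol. In all 13 the cytosolic level per kilobase was higher, with a median ratio of 4.24 in IP and 4.12 in Input. The threonine pair holds Tars and Tars2 only. The Tars-like gene Tarsl2, counted among the partner genes, was left out of the pair. Tarsl2 stood at 4.84 per kilobase in IP and 3.86 in Input, and Tars at 4.49 and 3.71. The subunits of the cytosolic phenylalanine enzyme were far apart in level per kilobase. Farsb stood at 44.97 in IP and 31.9 in Input, and Farsa at 3.10 in IP and 3.19 in Input. Lengths are of all annotated exons of a gene, which can exceed the transcript present.

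Summed over the 20 cytosolic genes, CPM came to 1511, 1764 and 1698 in IP, against 1361, 1387 and 1362 in Input. The 16 mitochondrial genes other than Lars2 summed to 180.0, 220.0 and 200.5 CPM in IP and to 161.7, 182.2 and 156.7 CPM in Input. With TMM scaling the cytosolic sums did not overlap between groups, and the mitochondrial sums overlapped slightly. The cytosolic separation depends on that scaling: relative to library totals, the sum of IP replicate 1 lies below those of the Input libraries. The ratio of the 2 sums was 8.39, 8.02 and 8.47 in IP, inside the 8.42, 7.61 and 8.69 of Input.

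Within pairs of 1 cytosolic and 1 mitochondrial gene, 13 amino acids could be compared without leucine. The cytosolic gene had the larger log2 fold change in 9 of them and the mitochondrial gene in 4. Phenylalanine, proline and glutamate were left out, since Farsa and Farsb are subunits and Eprs joins the glutamate and proline enzymes. Pars2 (0.76) and Ears2 (0.14) lay above Eprs (-0.14), and Fars2 (0.41) lay between Farsb (0.50) and Farsa (-0.04). Both members were called higher in 1 pair, Rars and Rars2. The ratio of cytosolic to mitochondrial counts within each library, which needs no scaling between libraries, was compared for all 14 pairs. It lay higher in every IP library than in every Input library for 3 pairs (Hars, Mars and Vars with their partners) and lower for 2 (Nars and Lars with theirs). For these 5 the exact two-sided permutation p was 0.1, the smallest that 3 against 3 libraries allow, and the adjusted p over the 14 pairs was 0.28. None of the pair ratios therefore passed the threshold, nor could they in this design.

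The pair Hars and Hars2 differed by the most in the cytosolic direction. The 2 genes lie head to head on opposite strands with start sites 197 bases apart and first exons that overlap, and they share 195 exonic bases. Hars2, in humans a gene of Perrault syndrome with hearing loss, had 12.99, 15.3 and 13.4 CPM in IP and 19.2, 13.3 and 15.9 CPM in Input, which overlap (adjusted p = 0.380; log2 fold change -0.21 ± 0.19 SE). The ratio of Hars to Hars2 counts was 8.17, 7.04 and 9.02 in IP, against 3.81, 5.47 and 4.80 in Input. The 95% interval of the Hars log2 fold change ran from 0.38 to 0.80 and that of Hars2 from -0.63 to 0.21.

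**Figure D5:**
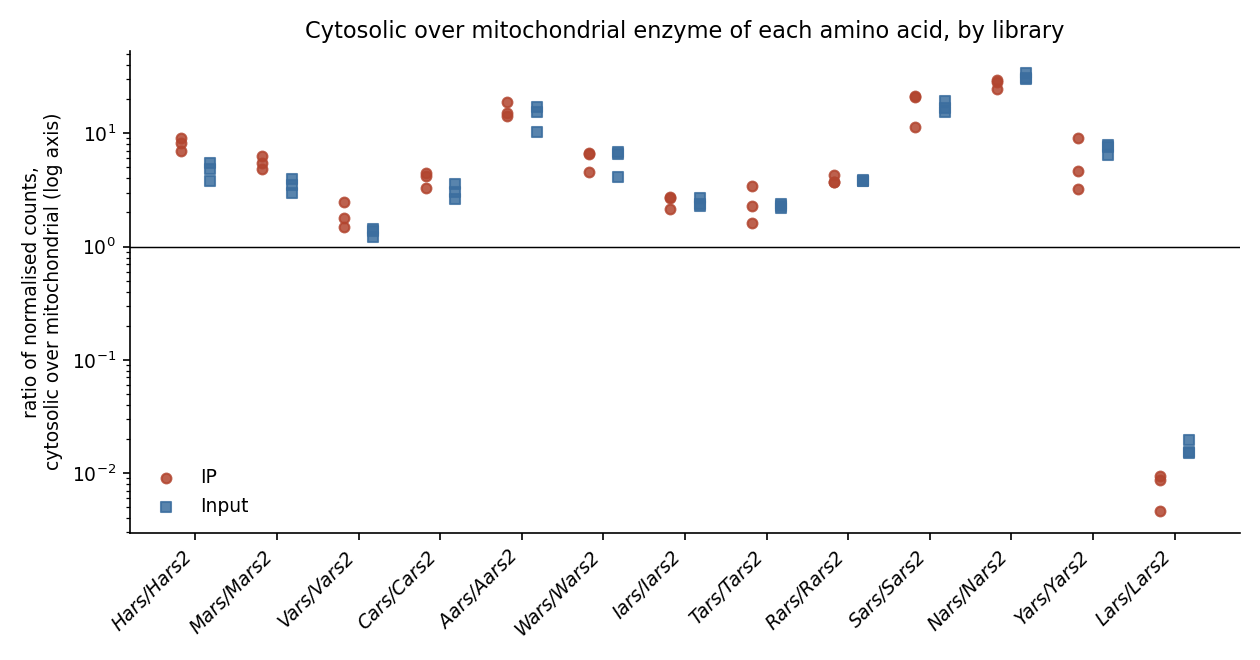
Ratio of cytosolic to mitochondrial counts, not divided by gene length, for 13 of the 14 amino acids in each library on a log axis, with IP (circles) left of Input (squares), sorted by the difference between groups. The Hars, Mars and Vars pairs at the left lie higher in IP, most pairs overlap, and the Lars/Lars2 ratio at the right lies below 1 in all libraries.

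Genes that work beside the synthetases were read from lists chosen with these data known. Each list's share is set beside the 23.3% higher and 24.3% lower of all genes tested. Of the 20 partner and editing genes, 8 were higher in IP (40%) and 1 lower (5%), with a median log2 fold change of 0.23. The count of those higher was 4 with upper-quartile scaling, library totals, a minimum count of 50 or any 1 Input library left out, and 4 and 5 were lower with the 2 scalings. After Eef1e1, the next highest was Gatc, a subunit of the amidotransferase that makes mitochondrial glutaminyl-tRNA, with 177.7, 110.0 and 133.4 CPM in IP, against 69.96, 73.6 and 77.8 CPM in Input (adjusted p = 0.00136; log2 fold change 0.93 ± 0.16 SE). Eef1a2, the elongation factor of neurons that carries charged tRNA to the ribosome, rose by little (adjusted p = 0.0298; log2 fold change 0.23 ± 0.08 SE). Its relative Eef1a1 had a log2 fold change of -0.01 and was not called.

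Of 16 genes of mitochondrial tRNA maturation, 4 were higher in IP (25%, near the 23.3% of all genes) and 1 lower (6.25%), with a median log2 fold change of 0.30. Only 1 was higher with upper-quartile scaling, with library totals, without Input replicate 1 or 2, or without replicate 1 or 3 of both groups, and 2 without Input replicate 3 or without replicate 2 of both groups. Nsun3, a methyltransferase of mitochondrial methionine tRNA, had a log2 fold change of 0.89 with an SE of 0.26 (adjusted p = 0.0208), with 45.6, 21.9 and 23.5 CPM in IP, against 15.8, 16.8 and 16.7 CPM in Input. The gene listed as 1110008L16Rik (Prorp), the nuclease of mitochondrial RNase P, had 0.68 with an SE of 0.14 (adjusted p = 0.00360). Mto1, which modifies the wobble base of mitochondrial tRNAs, had 0.50 with an SE of 0.14 (adjusted p = 0.0153). Trit1, a tRNA isopentenyltransferase, was lower (adjusted p = 0.0266; log2 fold change -0.79 ± 0.25 SE), a call lost without IP replicate 2, without any 1 Input library, and without replicate 1 or 2 of both groups.

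Uncharged tRNA activates the kinase GCN2 (Eif2ak4), which phosphorylates eIF2 and so raises translation of ATF4. Of the 6 genes of eIF2 kinases and their GCN2 regulators, 1 was higher (16.7%) and 2 lower (33.3%), counts too small to set apart from the shares of all genes. Eif2ak1, the kinase that answers to low haem, was the higher one (adjusted p = 0.000814; log2 fold change 0.77 ± 0.12 SE). Eif2ak2, the kinase of double-stranded RNA, was lower (adjusted p = 0.00128; log2 fold change -1.74 ± 0.30 SE), with 2.30, 2.14 and 3.69 CPM in IP, against 8.62, 9.69 and 8.76 CPM in Input. Impact, an inhibitor of GCN2 abundant in neurons, was lower as well, with 403.2, 366.6 and 352.3 CPM in IP and 540.0, 468.3 and 503.6 CPM in Input (adjusted p = 0.00302; log2 fold change -0.43 ± 0.09 SE). Eif2ak4 itself had a log2 fold change of -0.31 and was not called (adjusted p = 0.213).

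Of 27 tested of 29 listed genes of the ATF4 programme, 6 were higher in IP (22.2%) and 8 lower (29.6%), near the shares of all genes. The median log2 fold change of -0.07, with Nupr1, at 0 counts in all IP libraries, placed at the bound that 3 counts per library allow, was that of all genes. Atf4 itself had 419.7, 455.2 and 385.9 CPM in IP, against 177.0, 186.2 and 176.9 CPM in Input (adjusted p = 8e-06; log2 fold change 1.22 ± 0.09 SE). Pycr1, a proline synthesis enzyme, had 1.04 with an SE of 0.27 (adjusted p = 0.0111), and Asns, the asparagine synthetase, had 0.54 with an SE of 0.13 (adjusted p = 0.00636). Among those lower, Psat1, a serine synthesis enzyme, had 25.4, 35.7 and 30.9 CPM in IP and 131.5, 132.0 and 134.7 CPM in Input (adjusted p = 4e-06; log2 fold change -2.12 ± 0.13 SE). Slc7a11, the cystine transporter, was lower by a like amount (adjusted p = 4.5e-05; log2 fold change -2.23 ± 0.21 SE). The summed astrocyte markers lay between 860.5 and 934.8 CPM in IP, against 2498 to 2564 CPM in Input, and their part in the lower values was not tested.

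Of 27 tested of 29 listed amino acid transporters, 5 were higher in IP (18.5%) and 7 lower (25.9%), near the shares of all genes, and the median log2 fold change of -0.07 was that of all genes. Slc3a2, Slc7a5 and Slc7a11 are also in the ATF4 list. Slc3a2 is the median gene of both lists, so their medians are not separate results. Slc36a4, a carrier of proline and tryptophan, had 97.9, 74.9 and 77.5 CPM in IP, against 32.8, 30.2 and 35.6 CPM in Input (adjusted p = 5.5e-05; log2 fold change 1.34 ± 0.13 SE). Slc7a5, the large neutral amino acid transporter LAT1, had 21.01, 27.2 and 24.2 CPM in IP and 11.3, 13.5 and 11.2 CPM in Input (adjusted p = 0.00117; log2 fold change 1.01 ± 0.17 SE). Its groups, like those of Slc36a4, lay well apart. Slc7a2, a carrier of cationic amino acids, was lower, with 1.201, 3.77 and 1.46 CPM in IP, against 16.3, 20.1 and 18.6 CPM in Input (adjusted p = 0.000303; log2 fold change -3.10 ± 0.41 SE). Slc38a3, a glutamine carrier of astrocytes, was lower too (adjusted p = 9.5e-05; log2 fold change -2.77 ± 0.30 SE).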

How the data were processed

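RNA-seq libraries of 3 IP and 3 Input samples of thalamus were analysed from raw read counts per gene, which the authors deposited as a table per library. STAR 2.0.0e, HTSeq and the build mm10 are named in the submitters' processing notes for alignment and counting; the HTSeq version, strand setting and annotation are not given in the sources used here. In each library 6 lines naming no gene were left out, and of all lines those set aside as not uniquely aligned held 43.2% to 49.7% in IP and 32.7% to 34.0% in Input. Those set aside as lying in no annotated gene held 8.44% to 9.39% in IP and 14.8% to 15.9% in Input. Depth ran from 23929070 to 57385828 assigned counts.

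Tests on these counts used edgeR 4.0.16 under R 4.3.3 (filterByExpr with minimum count 10, TMM scaling with factors from 0.871 to 1.102, robust quasi-likelihood F-test, Benjamini-Hochberg over 16898 genes, threshold 0.05), after the test was checked on simulated data. The simulation changed few genes, as many up as down, and so cannot speak for the choice of scaling. CPM values are TMM-scaled, SE come from the F statistic, and intervals are 95%. Alternatives were limma-voom 3.58.1, DESeq2 1.42.0, other scalings and filters, a replicate block and leaving out libraries. Replicate libraries differed by more than sampling noise (chi-square per degree of freedom 12.5 to 138); none was a repeat deposit of another, and each was counted as 1 sample. Gene positions are from GENCODE M21 (GRCm38, the same assembly as mm10) and promoters from RefSeq (GRCm38.p6).

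The gene family and the related lists were chosen with earlier results of these data known. Values in every library were given for the 3 highest and 3 lowest called fold changes of each class with a mean of at least 5 CPM in a group, and for Gars, Kars, Ears2, Hars and Hars2, and 2 high and 2 low called genes were named in each related list. Eprs, Aimp1, Pars2, Asns, Eif2ak4 and Eef1a1 were named besides, after their values were seen. Values of certain other genes are left out.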

Additional observations from a re-analysis of the deposited data

How the results depend on the processing

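Of the 14 genes called higher in IP, 3 (Hars, Kars and Lars2) were called in every alternative run, and no called gene changed direction in any of them. DESeq2, limma-voom, no filter and a minimum count of 50 each gave the same 14 calls. Upper-quartile scaling called 8 of the family higher and 1 lower (Eprs), and library totals 3 higher and 2 lower (Eprs and Aimp1). For the cytosolic genes library totals left 2 higher and 1 lower, and upper-quartile scaling 1 lower, while either scaling left 1 mitochondrial gene higher. The cytosolic median log2 fold change was 0.15 with upper-quartile scaling and 0.094 with library totals, and the mitochondrial median 0.16 and 0.11, since these scalings moved all genes down. With libraries left out, singly or as same-numbered pairs, 8 to 19 of the family were higher, with 6 to 13 cytosolic and 1 to 5 mitochondrial genes, and the medians ran from 0.31 to 0.44 and from 0.19 to 0.45. The high counts came without IP replicate 1, which gave 19 (gaining Gars, Nars, Nars2, Pars2 and Yars). The low counts came without Input replicate 1 (9) or 3 (8) and without replicate 3 of both groups (8). Without IP replicate 2 or 3 the count was 14, and without replicate 1 of both groups 12. The part of the number of libraries in these counts was not tested.

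Same-numbered libraries share only a number and a lane suffix in the labels, and their deviations from the group means correlated at 0.087, 0.039 and 0.021. With a replicate block 13 of the family were higher and 0 lower, and the call of Rars2 was lost (adjusted p = 0.0530). Alternatives added after seeing the data left out Lars2 (13 of the family and 2 mitochondrial genes higher) or Rn45s, Mir6236 and Lars2 before scaling (13 higher).

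Outside Lars2, the mean level of a mitochondrial gene in a group was at most 25.1 CPM, and their median SE was 0.25, against 0.12 for the cytosolic genes. The part of depth in the calls was not tested.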
